A study of Mus musculus with 26 samples.

Results

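The genes described here are 35 genes of the core machinery of macroautophagy, taken by symbol from the 20430 gene symbols of the RNA tables and the 19941 symbols of the ribosome footprint tables. All 35 symbols were present in both kinds of table. They were sorted by role into the ULK kinase complex (5 genes), the VPS34 lipid kinase complex with its regulators (6 genes), a group of lipid transfer proteins, ATG9 and the WIPI proteins (5 genes), the conjugation enzymes (6 genes), the ATG4 proteases (4 genes), the ATG8 family (5 genes) and cargo receptors (4 genes).

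NIH3T3, an established line of mouse embryonic fibroblasts, was exposed to heat, to hydrogen peroxide (H2O2, an oxidant) or to potassium chloride (KCl, which makes the medium hyperosmotic). PolyA-selected RNA was sequenced in 16 libraries and ribosome footprints, the pieces of mRNA covered by ribosomes, in 10 libraries. Every group had 2 libraries. The heat experiment held a control, cells at 44 °C for 2 h and cells at 42 °C for 8 h, and was measured as RNA only. The second experiment held 1 control shared by both agents, H2O2 for 2 h or 7 h and KCl for 2 h or 7 h, and was measured as RNA and as footprints. The labels carry no concentration of H2O2 or KCl. They name no genotype, transgene or clone for any group. Nothing in the labels says that the 2 libraries of a group came from separate cultures, so the p-values below measure only the spread between these libraries.

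RNA libraries held between 24441877 and 45244430 expected counts and footprint libraries between 1460751 and 5168537, the lowest being replicate 1 of H2O2 at 2 h. The 35 genes took between 0.2024% and 0.2919% of the counts of an RNA library and between 0.1317% and 0.2273% of a footprint library. Replicates of every group differed by more than sampling noise, with a chi-square per gene of 3.16 to 12. Fibroblast markers (Col1a1, Col1a2, Vim, Fn1, Pdgfrb, Thy1 and S100a4) summed to between 4079 and 10574 TPM (transcripts per 1000000, a value per transcript length) in the RNA libraries, and epithelial markers to at most 2.81 TPM. The fibroblast sum was lowest after 7 h of H2O2 (4079 and 4083 TPM, against 8957 and 9040 in its control). Of the 2 immune markers Cd68, a lysosomal protein gene, ranged from 5.32 to 44.7 TPM and was highest after 7 h of H2O2, while the defining leukocyte gene Ptprc never exceeded 0.05 TPM. The endothelial markers Pecam1 and Cdh5 summed to at most 2.19 TPM. The part of these marker levels in the results was not tested. Bulk libraries cannot tell fewer cells from less RNA per cell.

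Macroautophagy encloses part of the cytoplasm in a double membrane, the autophagosome, and delivers it to the lysosome. The ULK kinase complex starts the process, the VPS34 complex marks the growing membrane with a phosphorylated lipid that WIPI proteins read, and ATG9 vesicles and ATG2 bring lipid. Proteins of the ATG8 family (LC3 and GABARAP) are trimmed by ATG4 proteases, attached to the membrane lipid by the conjugation enzymes, and bound by cargo receptors. In fibroblasts the pathway runs at a basal rate and is known to be raised by starvation and by many stresses.

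The promoters of 4 members are shown because these genes had large RNA changes in the comparisons that follow: Ulk1 under H2O2, Uvrag and Map1lc3b under KCl, and Atg14 under heat, H2O2 and KCl alike. Each line runs from 250 bases before to 20 bases after the start site of RefSeq's GRCm38.p6 annotation, 5′ to 3′ on the gene's own strand. Capitals mark matches to the searched letters. Ulk1 lies at chr5:110810062-110810331 (minus strand), Uvrag at chr7:99141125-99141394 (minus), Map1lc3b at chr8:121590188-121590457 (plus) and Atg14 at chr14:47568415-47568684 (minus).
Ulk1: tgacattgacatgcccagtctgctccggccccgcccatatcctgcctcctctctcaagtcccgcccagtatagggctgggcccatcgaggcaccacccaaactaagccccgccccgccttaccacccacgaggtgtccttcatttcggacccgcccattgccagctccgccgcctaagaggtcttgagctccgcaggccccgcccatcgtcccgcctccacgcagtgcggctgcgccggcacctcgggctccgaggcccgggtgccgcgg
Uvrag: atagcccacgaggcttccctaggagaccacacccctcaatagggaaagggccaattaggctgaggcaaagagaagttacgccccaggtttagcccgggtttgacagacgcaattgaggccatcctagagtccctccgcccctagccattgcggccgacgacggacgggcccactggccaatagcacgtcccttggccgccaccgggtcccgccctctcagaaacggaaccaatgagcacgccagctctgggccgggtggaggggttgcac
Map1lc3b: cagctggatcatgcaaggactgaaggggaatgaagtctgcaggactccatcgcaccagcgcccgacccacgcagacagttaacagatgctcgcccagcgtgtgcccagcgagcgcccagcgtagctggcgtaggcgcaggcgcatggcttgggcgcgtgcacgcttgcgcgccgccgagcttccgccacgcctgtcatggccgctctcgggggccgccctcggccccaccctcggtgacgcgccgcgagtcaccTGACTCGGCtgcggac
Atg14: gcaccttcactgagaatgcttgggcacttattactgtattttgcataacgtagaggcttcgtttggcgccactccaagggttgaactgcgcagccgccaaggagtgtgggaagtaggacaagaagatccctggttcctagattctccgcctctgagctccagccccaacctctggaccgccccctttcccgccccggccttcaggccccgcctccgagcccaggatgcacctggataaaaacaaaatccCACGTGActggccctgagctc

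A set of 5 short motifs was searched on both strands in windows of 300 bases, which exist for 33 promoters of 29 members. CACGTG (the E-box core) stood in 4 of the 33, those of Atg14, Atg3, Atg5 and Atg7, against 7.15% of 32851 promoters of all genes. Its extension TCACGTG, the core bound by TFEB-type factors, stood in 3 of them (Atg14, Atg3 and Atg7) against 3.77% of all. In Atg14 the matches overlap on opposite strands, beginning at the base before the start site. TGACNNNGC, the form bound by NRF2-type factors, stood in 4 member promoters (Atg13, Map1lc3b, Tax1bp1 and Ulk2) against 12.4% of all. GAANNTTC, a pair of heat shock units, stood in that of Optn alone (7.86% of all) and TGATGNAA, an ATF4-type motif, in none (3.97% of all). The printed windows of Ulk1 and Uvrag hold none of these letters.

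Across the 16 RNA libraries the most abundant member per transcript length was Gabarap, with a mean of 500 TPM and a range from 369 to 753. It was followed by Map1lc3b (238 TPM), Gabarapl2 (142), Tax1bp1 (134), Becn1 (110), Gabarapl1 (109) and Map1lc3a (107). All 5 ATG8 genes were thus among the first 7, and the ranges of Gabarapl2, Tax1bp1, Becn1, Gabarapl1 and Map1lc3a overlapped. The lowest levels were those of Atg7 (11.9 TPM), Atg4c (6.8) and Atg10 (2.39), enzymes of conjugation and ATG8 processing. Mean levels of the 8 groups spanned the widest range for Ulk1 (the highest group 7.86 times the lowest), Atg10 (5.49 times) and Uvrag (4.48 times), and the narrowest for Becn1 (1.5 times).

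In the control of the H2O2 and KCl experiment the ratio of footprint TPM to RNA TPM, a measure of how heavily an mRNA is read by ribosomes, ran from 0.0968 for Ulk2 to 1.63 for Gabarapl2. Its median over the 35 genes was 0.455, against 0.638 over 10238 genes. The low end held Becn1 (0.154), Ulk1 (0.155), Atg4d (0.168) and Atg2a (0.244). At the high end stood Atg4b (1.45), Wipi2 (1.44), Map1lc3b (1.27) and Atg5 (1.12). The ULK kinases and the scaffold Becn1 were therefore low on this scale while LC3B, GABARAPL2 and the main protease Atg4b were high. These ratios come from 2 control libraries of each kind and carry no test.

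RNA of all 35 genes passed the filter on low counts in both experiments. Each was called, at an adjusted p under 0.05 in edgeR's quasi-likelihood test, in at least 1 of the 6 comparisons with a control, as were 99.3% of the 12452 genes tested in both experiments. Uvrag was the single member called in all 6, against 10.9% of all genes. Calls went higher in some comparisons and lower in others for 23 members (65.7%, against 62.1% of all genes), only higher for 7 (20%, against 19.6%) and only lower for 5 (14.3%, against 17.6%). These shares lay near those of all genes. Changes of at least 1 on the log2 scale, a doubling or halving, were reached by 11 members (31.4%, against 44.2% of all genes), and all but 1 of these changes were seen after 7 h of H2O2 or KCl.

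At 44 °C for 2 h, 23 members (65.7%) were called, where 71% of all 12747 genes tested were called. Of these members 16 were higher and 7 lower, against 35.4% and 35.7% of all genes. At 42 °C for 8 h there were 26 (74.3%, against 63.6%), 10 higher and 16 lower, against 31.7% and 31.9%. H2O2 gave 14 calls at 2 h (40%, against 53.9% of 13256 genes), 4 higher and 10 lower, against 27.3% and 26.5%. After 7 h of H2O2 there were 23 (65.7%, against 70.5%), 15 higher and 8 lower, against 39.4% and 31.1%. KCl gave 19 at 2 h (54.3%, against 54.2%), 8 higher and 11 lower, against 27.2% and 27% of all genes. After 7 h of KCl there were 30 (85.7%, against 68.8%), 23 higher and 7 lower, against 37.2% and 31.6%.

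The share called lay nearest that of all genes at 2 h of KCl (54.3% against 54.2%) and furthest from it at 7 h of KCl (85.7% against 68.8%). Of the called members 69.6% were higher at 44 °C and 38.5% at 42 °C. Under H2O2 28.6% were higher at 2 h and 65.2% at 7 h, and under KCl 42.1% and 76.7%. These differences from all genes were not tested. The members' median log2 fold change at 7 h of KCl was 0.34 against 0.04 over all genes. In the other 5 comparisons it lay between -0.12 and 0.12, and that of all genes between -0.01 and 0.08. Called changes of at least 1 on the log2 scale were made by 1 member at 44 °C (11% of all genes), 0 at 42 °C (7.92%), 0 at 2 h of H2O2 (13.3%), 3 at 7 h of H2O2 (23.3%), 0 at 2 h of KCl (12.7%) and 8 at 7 h of KCl (18.4%). The H2O2 and KCl comparisons share their control libraries.

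The split by direction moved with the scale. On log2(TPM + 1) values, tested with limma, the calls at 44 °C were 21 higher and 4 lower, against 4608 and 3642 of 11456 genes. Those at 42 °C were 3 higher and 23 lower, against 1872 and 5962, so all genes were skewed lower there too. At 7 h of H2O2 they were 14 higher and 12 lower, against 3806 and 4411 of 11409 genes. DESeq2 called 16 higher and 3 lower at 44 °C, against 3947 and 3938 of 12747 genes. On the TPM scale the median of all genes itself moved to -0.17 at 42 °C, from -0.01. For 7 h of KCl the split was 21 higher and 7 lower on the TPM scale, against 3685 and 4676 of 11409 genes.

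**Figure D1:**
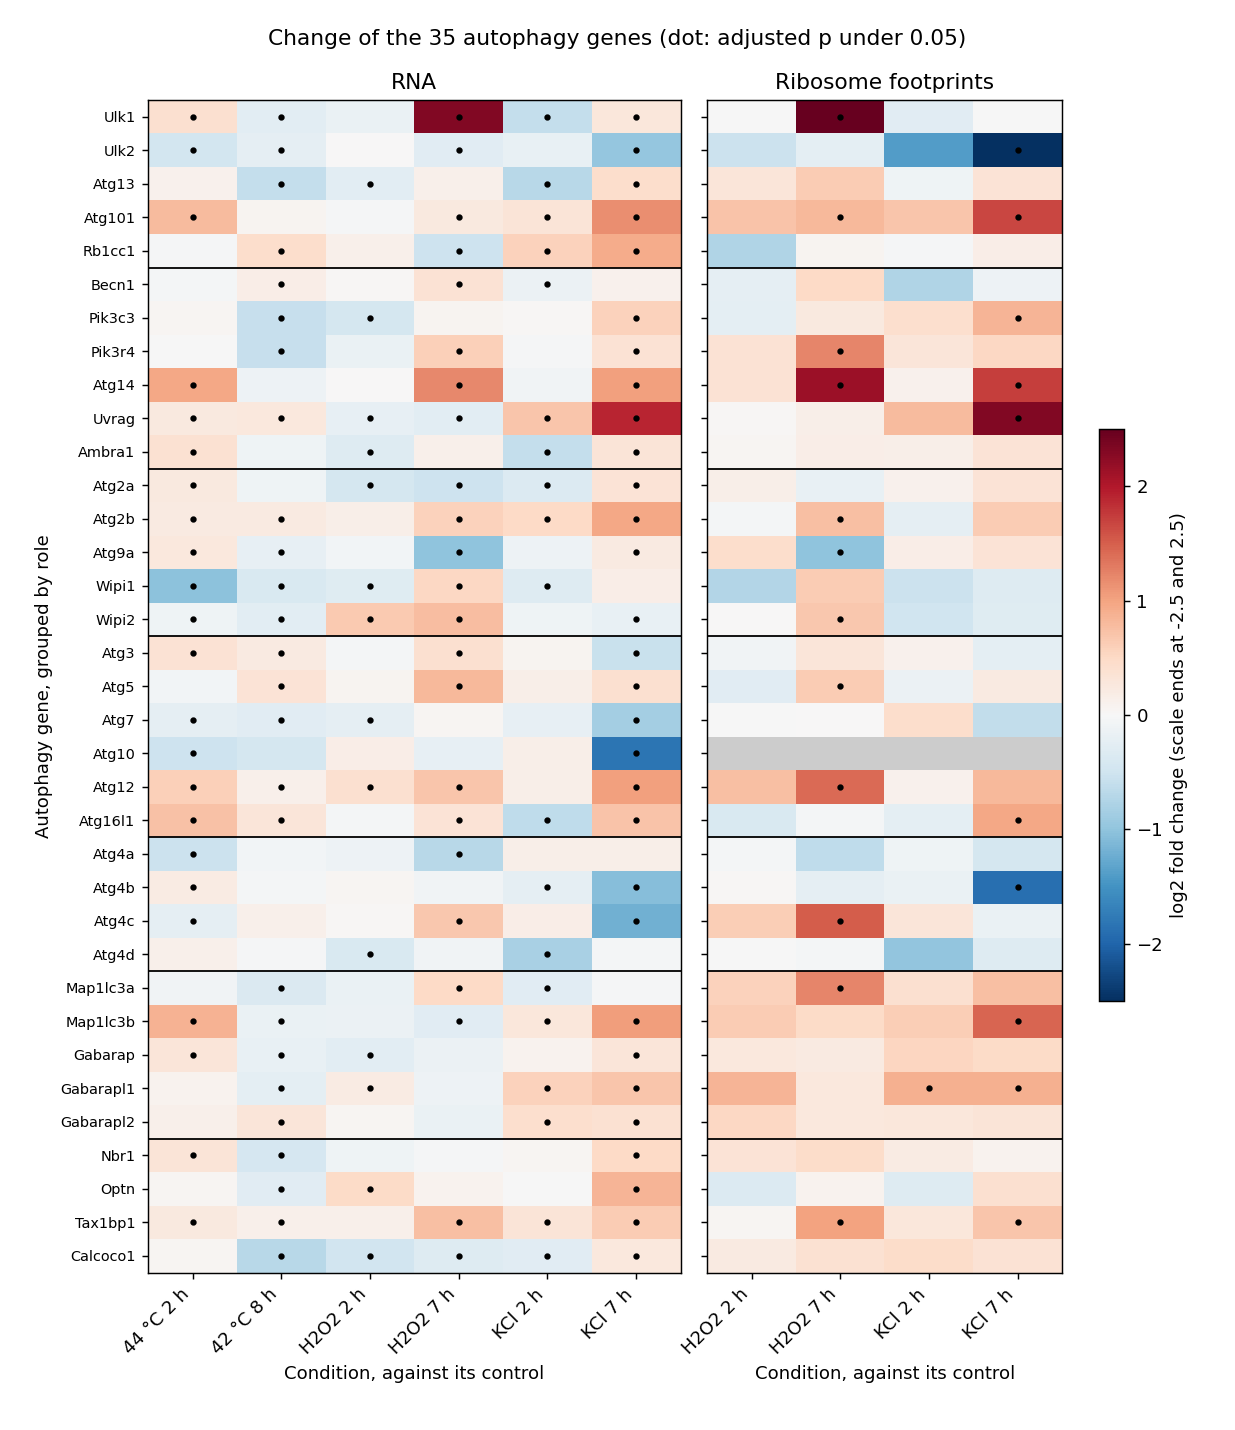
Log2 fold change of each of the 35 genes (rows, grouped by role in the order ULK complex, VPS34 complex, lipid transfer with ATG9 and WIPI, conjugation, ATG4, ATG8, cargo receptors) against its control, for RNA (left) and ribosome footprints (right). Dots mark adjusted p under 0.05, grey cells were not tested, and the 7 h KCl column of RNA is mostly red, with 23 members called higher.

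The ULK complex pairs the kinase ULK1 or its relative ULK2 with ATG13, ATG101 and the scaffold FIP200, which Rb1cc1 encodes. Its largest change was that of Ulk1 after 7 h of H2O2. Ulk1 RNA stood at 65.9 and 66.1 CPM (counts scaled to a common library size by TMM normalization, per 1000000) in the 2 control libraries, 57.8 and 60.5 after 2 h of H2O2, 328 and 331 after 7 h of H2O2, 45.6 and 41.3 after 2 h of KCl, and 76.4 and 85.6 after 7 h of KCl. In the heat experiment it was 68.4 and 70.2 in the control, then 89.2 and 95.3 after 2 h at 44 °C and 57.3 and 58.3 after 8 h at 42 °C. The libraries at 7 h of H2O2 stood far above the others of their experiment, and each heat group was separate from its control. The log2 fold change at 7 h of H2O2 was 2.32 (SE 0.068, adjusted p = 1.32e-12), while at 2 h of H2O2 it was -0.16 (adjusted p = 0.0662). Ulk1 also rose at 44 °C (0.41, SE 0.046, adjusted p = 1.84e-06) and at 7 h of KCl (0.29), and fell at 42 °C (-0.26) and at 2 h of KCl (-0.60).

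Footprints on Ulk1 changed more than its RNA. They measured 13.7 and 15.7 CPM in the control, 10.7 and 16.7 after 2 h of H2O2, 160 and 213 after 7 h of H2O2, 15.8 and 8.34 after 2 h of KCl, and 16.2 and 13 after 7 h of KCl. Only the libraries at 7 h of H2O2 lay outside the range of the rest. The footprint log2 fold change there was 3.66 (SE 0.29, adjusted p = 1.91e-06), and translational efficiency, the change of footprints beyond that of RNA, rose by 1.35 (SE 0.26, adjusted p = 0.00372). This call held in all 12 alternatives run for it, with values from 1.13 to 1.53. In TPM, Ulk1 made up 68.8% (SD 0.043, n = 2) of the summed RNA of Ulk1 and Ulk2 in the control and 93.2% (SD 0.0704, n = 2) at 7 h of H2O2.

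Ulk2 RNA went the other way under KCl, from 33.8 and 32.9 CPM in the control to 16.8 and 17.5 after 7 h (log2 fold change -0.96, SE 0.083, adjusted p = 1.58e-07). Its footprints were few, 5.87 and 2.2 CPM in the control and 0 and 0.851 after 7 h of KCl. The footprint log2 fold change of -3.0 (SE 0.93, adjusted p = 0.0366) rests on these few counts, ranged from -6.78 to -2.11 over the alternatives, and lost its call under DESeq2 and without control replicate 1 or either KCl replicate. One of the KCl libraries held no count, so the size of this change is set by the model and is no bound.

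Atg101, which stabilizes ATG13, had 29.6 and 32.2 CPM of RNA in the control, 32.7 and 28 after 2 h and 37 and 36.1 after 7 h of H2O2, and 40.1 and 37.2 after 2 h and 68.3 and 70.8 after 7 h of KCl. Under heat it was 25.4 and 27.8 in the control, then 45.1 and 47.3 after 2 h at 44 °C and 27.4 and 28.3 after 8 h at 42 °C. Both KCl groups and the 44 °C group lay above their controls without overlap. The log2 fold change was 1.17 at 7 h of KCl (SE 0.079, adjusted p = 1.41e-08) and 0.80 at 44 °C (SE 0.061, adjusted p = 3.86e-08). Its footprints rose from 31.3 and 26.9 to 106 and 79.7 CPM at 7 h of KCl, a log2 fold change of 1.67 (SE 0.22, adjusted p = 0.000398).

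Rb1cc1 differed between the agents. Its RNA was at 93.6 and 99.3 CPM in the control, 99.8 and 112 after 2 h and 66.2 and 69.4 after 7 h of H2O2, and 128 and 158 after 2 h and 185 and 182 after 7 h of KCl. In the heat experiment it measured 129 and 120 in the control, then 128 and 116 after 2 h at 44 °C and 168 and 166 after 8 h at 42 °C. At 7 h the H2O2 libraries lay below the control and the KCl libraries above it, with log2 fold changes of -0.51 (SE 0.089, adjusted p = 0.000145) and 0.93 (SE 0.087, adjusted p = 3.87e-07). Its footprints were 72.1 and 54.1 CPM in the control and 30 and 42.5 after 2 h of H2O2. Translational efficiency was called lower there, by -0.90 (SE 0.25, adjusted p = 0.0285), but not with voom weights, without footprint replicate 1 of either group, without RNA replicate 2 of H2O2 or without either RNA control. Atg13, the bridge between kinase and scaffold, fell at 42 °C (-0.59) and at 2 h of either agent (H2O2 -0.26, KCl -0.69) and rose at 7 h of KCl (0.44), and its adjusted p in the other comparisons with a control was 0.106 (44 °C) and 0.0853 (7 h of H2O2). Over the complex, 4 of 5 genes were called higher and 1 lower at 7 h of KCl, where 37.2% of all genes were higher and 31.6% lower. The counts were 2 and 2 at 7 h of H2O2 (39.4% and 31.1% of all genes), 2 and 2 at 2 h of KCl (27.2% and 27%), and 0 and 1 at 2 h of H2O2 (27.3% and 26.5%). Heat gave 2 and 1 at 44 °C (35.4% and 35.7%) and 1 and 3 at 42 °C (31.7% and 31.9%).

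The VPS34 complex consists of the lipid kinase Pik3c3, its anchor Pik3r4, the scaffold Becn1 and either Atg14, which directs it to autophagosome formation, or Uvrag, which directs it to endosomes and later steps. Ambra1 binds Becn1 and regulates it. The largest RNA change under KCl among all 35 genes was that of Uvrag. Its RNA was 46.2 and 47.2 CPM in the control, 77.4 and 74.4 after 2 h of KCl, 165 and 187 after 7 h of KCl, 40.3 and 40.7 after 2 h of H2O2, and 38.7 and 38.7 after 7 h of H2O2. Its values under heat were 48.8 and 50.2 in the control, then 58.6 and 58.2 after 2 h at 44 °C and 58.7 and 59.9 after 8 h at 42 °C. The KCl groups stood above and the H2O2 groups below the control, each without overlap. The log2 fold change was 0.70 at 2 h (SE 0.067, adjusted p = 8.61e-07) and 1.91 at 7 h of KCl (SE 0.066, adjusted p = 3.49e-11), against -0.21 and -0.27 under H2O2 (adjusted p = 0.0198 and 0.00278). Uvrag footprints went from 16.1 and 15.7 CPM in the control to 31.5 and 23.6 after 2 h and 74.4 and 84.2 after 7 h of KCl. At 7 h this was a log2 fold change of 2.32 (SE 0.25, adjusted p = 9.54e-05), with translational efficiency at 0.44 (SE 0.22, adjusted p = 0.255).

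Atg14 was higher in 3 of the 6 RNA comparisons, each by about a doubling. Its RNA measured 20.8 and 19.9 CPM in the control, 21.5 and 19.6 after 2 h and 44.2 and 49.4 after 7 h of H2O2, and 18.5 and 19.9 after 2 h and 40.3 and 42.5 after 7 h of KCl. Heat gave 21.2 and 22.9 in the control, then 41.6 and 44.3 after 2 h at 44 °C and 19.4 and 21.3 after 8 h at 42 °C. The groups at 7 h of either agent and at 44 °C were separate from their control and from the other groups of their experiment. The log2 fold changes were 1.20 at 7 h of H2O2 (SE 0.079, adjusted p = 6.54e-09), 1.02 at 7 h of KCl (SE 0.08, adjusted p = 6.46e-08) and 0.96 at 44 °C (SE 0.066, adjusted p = 1.23e-08). On footprints, Atg14 measured 6.36 and 7.69 CPM in the control, 27 and 34.6 after 7 h of H2O2, and 21.8 and 24.4 after 7 h of KCl. The footprint rises were 2.13 (SE 0.28, adjusted p = 0.000113) and 1.72 (SE 0.29, adjusted p = 0.00166). Translational efficiency was called higher at 7 h of H2O2 (0.94, SE 0.24, adjusted p = 0.0197), but not without RNA or footprint control replicate 1, without footprint replicate 2 of H2O2, or with voom weights per kind of library (adjusted p up to 0.128).

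Pik3r4 RNA was 41.9 and 38.8 CPM in the control, 37.6 and 34.4 after 2 h and 60.6 and 62 after 7 h of H2O2, and 37.5 and 42.3 after 2 h and 51.1 and 53.6 after 7 h of KCl. Heat gave 55.3 and 54.4 in the control, then 56.1 and 52.7 after 2 h at 44 °C and 36.4 and 37.5 after 8 h at 42 °C. Both 7 h groups were above the control and the 42 °C group below its own. The RNA log2 fold changes were 0.60 at 7 h of H2O2 (SE 0.074, adjusted p = 4.61e-06), 0.37 at 7 h of KCl and -0.57 at 42 °C. Its footprints rose from 43 and 44.2 to 114 and 88.7 CPM after 7 h of H2O2 (1.22, SE 0.19, adjusted p = 0.000414). Translational efficiency of 0.62 there (SE 0.17, adjusted p = 0.0313) lost its call when any of 7 of the 8 libraries was left out and with voom weights (adjusted p up to 0.173). Without footprint replicate 2 of H2O2 the call held.

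Ambra1 dipped at 2 h and was above the control at 7 h of KCl. Its RNA measured 64.9 and 62.9 CPM in the control, 52 and 50.3 after 2 h and 71.1 and 69 after 7 h of H2O2, and 42.4 and 42.6 after 2 h and 82.7 and 77.7 after 7 h of KCl. Under heat it was 67.1 and 70.6 in the control, then 89.7 and 90.9 after 2 h at 44 °C and 62.1 and 65.6 after 8 h at 42 °C. The log2 fold change was -0.59 at 2 h of KCl (SE 0.061, adjusted p = 1.86e-06) and 0.33 at 7 h, and 0.39 at 44 °C. Footprints were 42.1 and 52.8 CPM in the control and 49 and 56.3 after 2 h of KCl, so they overlapped while RNA was lower, and translational efficiency was called at 0.73 (SE 0.2, adjusted p = 0.0204), not so without footprint or RNA control replicate 1 or without replicate 2 of either KCl group. Pik3c3 fell by 0.57 at 42 °C and by 0.44 after 2 h of H2O2 and rose at 7 h of KCl in RNA (0.58) and in footprints (0.84, adjusted p = 0.016). The footprint call was lost on log2(TPM + 1), without control replicate 2 and without either KCl replicate (adjusted p up to 0.127). Becn1 stayed within 0.37 on the log2 scale in every RNA comparison with control. Of the 6 genes of the complex 5 were called higher and none lower in RNA at 7 h of KCl, against 37.2% and 31.6% of all genes, Becn1 being the exception (0.10, adjusted p = 0.126).

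**Figure D2:**
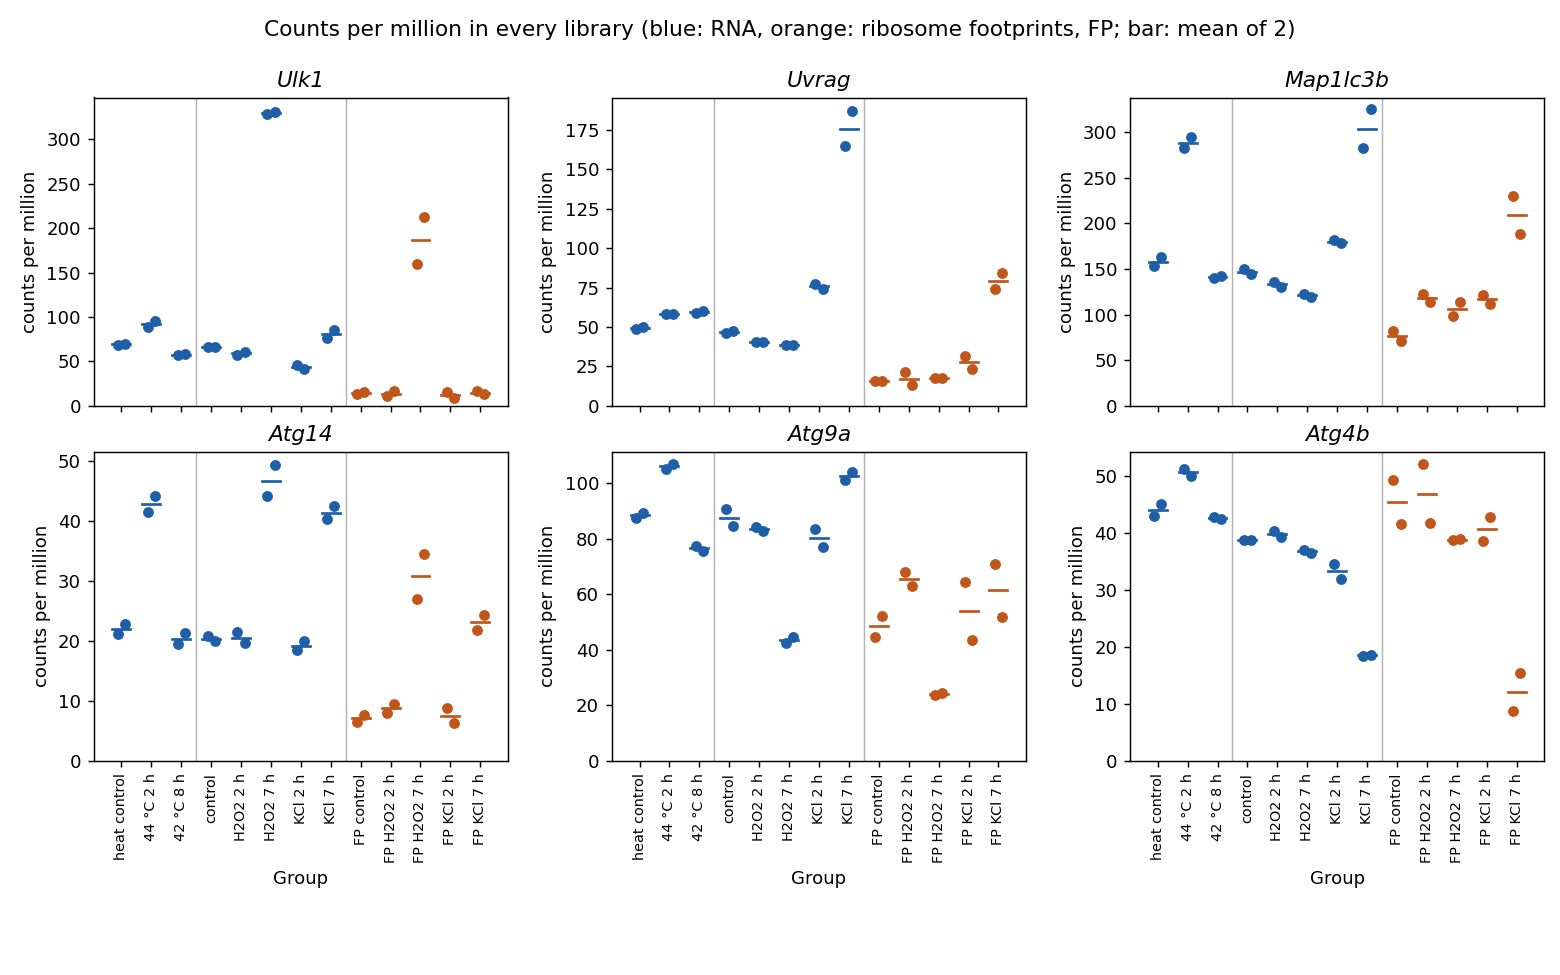
CPM after normalization (vertical axes, each from 0) of 6 autophagy genes in every RNA library (blue) and every footprint library (orange), by group; bars are means of 2 libraries. Ulk1 stands out at 7 h of H2O2, Uvrag at 7 h of KCl, Map1lc3b at 44 °C and 7 h of KCl, and Atg9a and Atg4b are lowest at 7 h of H2O2 and 7 h of KCl.

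Among the proteins that supply and mark the membrane, the 7 h H2O2 group lowered Atg9a, the multispanning protein of the vesicles that seed autophagosomes. Its RNA was 90.5 and 84.6 CPM in the control, 84.2 and 82.7 after 2 h and 42.4 and 44.4 after 7 h of H2O2, and 83.6 and 77 after 2 h and 101 and 104 after 7 h of KCl. Heat gave 87.5 and 89.3 in the control, then 105 and 107 after 2 h at 44 °C and 77.2 and 75.7 after 8 h at 42 °C. The 7 h H2O2 libraries lay well below every other library of that experiment. The RNA change was -1.01 on the log2 scale (SE 0.064, adjusted p = 3.96e-09). Footprints fell from 44.5 and 52.2 to 23.6 and 24.5 CPM (-1.01, SE 0.24, adjusted p = 0.00768), a call lost without H2O2 replicate 1 or control replicate 2 (adjusted p up to 0.0535).

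Wipi1 and Wipi2 bind the lipid made by VPS34, and they moved differently. Wipi1 RNA was 29.4 and 33.3 CPM in the heat control, then 15.9 and 14.7 after 2 h at 44 °C and 24 and 23.7 after 8 h at 42 °C. In the other experiment it was 22 and 23.3 in the control, 18.7 and 17.7 after 2 h and 33 and 31.3 after 7 h of H2O2, and 19.1 and 17.1 after 2 h and 25.1 and 25.8 after 7 h of KCl. Its level at 44 °C was below both other heat groups. The fall there was -1.03 (SE 0.074, adjusted p = 2.16e-08), the single change of that size under heat, and Wipi1 rose by 0.51 at 7 h of H2O2 (SE 0.076, adjusted p = 3.11e-05).

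Wipi2, the isoform that recruits the ATG16L1 complex, was at 102 and 104 CPM in the control, 169 and 156 after 2 h and 176 and 178 after 7 h of H2O2, and 99.7 and 92 after 2 h and 88.9 and 93.3 after 7 h of KCl. Its values under heat were 116 and 115 in the control, then 109 and 107 after 2 h at 44 °C and 96.4 and 95.8 after 8 h at 42 °C. Both H2O2 groups were above the control, with log2 fold changes of 0.66 (SE 0.062, adjusted p = 8.24e-07) and 0.78 (SE 0.062, adjusted p = 4.99e-08). Footprints followed at 7 h (109 and 97.8 CPM in the control, 153 and 180 at 7 h; 0.68, adjusted p = 0.0151) but at 2 h were 92 and 115 CPM. Translational efficiency at 2 h was called lower by -0.68 (SE 0.18, adjusted p = 0.0218), which was lost without footprint replicate 1 of either group, without RNA replicate 1 of H2O2 or without either RNA control. The 7 h footprint call was lost without H2O2 replicate 2 or either control.

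The lipid transfer proteins ATG2A and ATG2B also differed. Atg2b RNA was 61.9 and 64 CPM in the control, 68.7 and 70.5 after 2 h and 94.7 and 91.9 after 7 h of H2O2, and 85.3 and 92.7 after 2 h and 114 and 132 after 7 h of KCl. Heat gave 77.2 and 79.3 in the control, then 93.5 and 89.9 after 2 h at 44 °C and 94.8 and 88.7 after 8 h at 42 °C. Every stressed group was above its control, by up to 0.96 (SE 0.072, adjusted p = 4.1e-08) at 7 h of KCl, although at 2 h of H2O2 the difference did not pass the test (0.15, adjusted p = 0.107). Its footprints after 2 h of KCl were 46.6 and 42.1 CPM against 45.5 and 58.8 in the control, and translational efficiency was -0.74 (SE 0.24, adjusted p = 0.0478). That call was lost in 9 of 12 alternatives, among them leaving out any library but footprint control replicate 1. Atg2a fell under H2O2 (-0.43 at 2 h and -0.51 at 7 h) and at 2 h of KCl (-0.34) and rose at 7 h of KCl (0.34) and at 44 °C (0.24).

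The conjugation enzymes attach ATG12 to ATG5 and the ATG8 proteins to lipid. At 7 h of KCl 3 of the 6 rose (Atg12, Atg16l1 and Atg5) and the other 3 fell (Atg10, Atg7 and Atg3), against 37.2% and 31.6% of all genes. Those that rose are the parts of the ATG12-ATG5-ATG16L1 complex, and those that fell are the E1-like Atg7 and the E2-like Atg3 and Atg10. Under 7 h of H2O2 4 rose (Atg5, Atg12, Atg3 and Atg16l1, by 0.34 to 0.81) and none fell, against 39.4% and 31.1%.

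Atg12, the ubiquitin-like protein of the complex, had 28.8 and 26.5 CPM of RNA in the control, 37.7 and 35.5 after 2 h and 44.4 and 45.7 after 7 h of H2O2, and 28.8 and 32.6 after 2 h and 54.2 and 58.5 after 7 h of KCl. Heat gave 33.6 and 33.3 in the control, then 50.2 and 50.7 after 2 h at 44 °C and 36.8 and 36.3 after 8 h at 42 °C. Its levels after 7 h of either agent and at 44 °C lay clear of the controls. The log2 fold change was 1.02 at 7 h of KCl (SE 0.077, adjusted p = 4.22e-08), 0.70 at 7 h of H2O2 (SE 0.077, adjusted p = 1.56e-06) and 0.59 at 44 °C (SE 0.051, adjusted p = 1.39e-07). At 42 °C it was 0.13 (adjusted p = 0.0454), a value that turned to -0.05 on the TPM scale. Footprints on Atg12 were few, 3.18 and 5.5 CPM in the control against 12.2 and 10.9 after 7 h of H2O2 (1.42, adjusted p = 0.022), a call lost under DESeq2 and without control replicate 1 or either H2O2 replicate. Atg12 overlaps Ap3s1 in the annotation, and the sources used here do not give whether counting used strand.

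Atg7 activates both ubiquitin-like proteins. Its RNA was 17.5 and 17.2 CPM in the control, 14.9 and 14.8 after 2 h and 18.4 and 17.1 after 7 h of H2O2, and 15.7 and 14.5 after 2 h and 9.43 and 9.8 after 7 h of KCl. Under heat it was 19.7 and 19.1 in the control, then 16.1 and 17.3 after 2 h at 44 °C and 15.8 and 15.9 after 8 h at 42 °C. The 7 h KCl libraries were the lowest of their experiment, at -0.85 on the log2 scale (SE 0.085, adjusted p = 7.02e-07). Footprints on Atg7 were 20.8 and 21.7 CPM in the control and 28.5 and 28.9 after 2 h of KCl, and translational efficiency there was called at 0.62 (SE 0.17, adjusted p = 0.0235). It was not called with voom weights (adjusted p up to 0.116 over the alternatives) or without either RNA control, footprint control replicate 1, either KCl footprint replicate or RNA replicate 2 of KCl.

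Atg10, the E2-like enzyme for ATG12 and the least abundant member, fell at 7 h of KCl from 2.03 and 1.47 CPM to 0.536 and 0.441. Its other RNA values were 2.06 and 1.89 after 2 h and 1.64 and 1.42 after 7 h of H2O2, 2.02 and 1.87 after 2 h of KCl, and 2.55 and 2.47 in the heat control, then 1.95 and 1.54 after 2 h at 44 °C and 1.86 and 1.87 after 8 h at 42 °C. The change at 7 h of KCl was -1.83 (SE 0.27, adjusted p = 3.54e-05) and -1.06 on the log2(TPM + 1) scale, which compresses low values. A call at 44 °C (-0.52, adjusted p = 0.0212) was lost under DESeq2 and without 44 °C replicate 2 or either heat control. Its footprints were too few to test, at most 2.01 CPM in any library. Atg16l1 rose at 7 h of KCl in RNA (0.71) and footprints (0.96, SE 0.22, adjusted p = 0.00978), after being lower at 2 h in RNA (-0.63), and rose at 44 °C (0.73). Its footprint call was lost without control or KCl replicate 2 (adjusted p up to 0.0796).

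The ATG4 proteases cut ATG8 precursors and release ATG8 proteins from membranes. None of the 4 was called higher under KCl, where 27.2% of all genes were higher at 2 h and 37.2% at 7 h, and at 7 h of KCl Atg4b and Atg4c fell. Atg4b RNA was 38.7 and 38.8 CPM in the control, 40.3 and 39.3 after 2 h and 37 and 36.5 after 7 h of H2O2, and 34.6 and 31.8 after 2 h and 18.4 and 18.6 after 7 h of KCl. Its values under heat were 42.9 and 45 in the control, then 51.2 and 50 after 2 h at 44 °C and 42.7 and 42.4 after 8 h at 42 °C. The 7 h KCl libraries were far below the others of their experiment (-1.07, SE 0.07, adjusted p = 1.15e-08). Its footprints fell from 49.2 and 41.5 to 8.64 and 15.3 CPM, by 1.89 on the log2 scale (SE 0.27, adjusted p = 0.000566), while translational efficiency was -0.78 (SE 0.23, adjusted p = 0.0586).

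Atg4c RNA was 8.42 and 7.57 CPM in the control, 7.87 and 8.34 after 2 h and 13.1 and 12.5 after 7 h of H2O2, and 8.31 and 9.69 after 2 h and 4.14 and 2.69 after 7 h of KCl. Heat gave 11.7 and 12.4 in the control, then 10.9 and 9.73 after 2 h at 44 °C and 13 and 13.2 after 8 h at 42 °C. At 7 h the agents moved it apart, up by 0.67 under H2O2 (SE 0.13, adjusted p = 0.000294) and down under KCl (-1.21, SE 0.16, adjusted p = 9.5e-06). Atg4d fell at 2 h of both agents (-0.38 and -0.81), and Atg4a fell at 44 °C (-0.54) and at 7 h of H2O2 (-0.70). Atg4a overlaps Psmd10 and Atg4d overlaps Kri1 in the annotation.

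The ATG8 family coats the autophagosome. LC3 is encoded by Map1lc3a and Map1lc3b and the GABARAP branch by Gabarap, Gabarapl1 and Gabarapl2. Map1lc3b was the member of the family that changed most. Its RNA was 150 and 144 CPM in the control, 136 and 130 after 2 h and 123 and 119 after 7 h of H2O2, and 182 and 178 after 2 h and 282 and 325 after 7 h of KCl. In the heat experiment it was 153 and 163 in the control, then 282 and 294 after 2 h at 44 °C and 140 and 142 after 8 h at 42 °C. It was thus higher than its control at 44 °C and at both times of KCl, and below it at 42 °C and 7 h of H2O2, with no overlap. The log2 fold changes were 0.86 at 44 °C (SE 0.044, adjusted p = 6.64e-10), 1.05 at 7 h of KCl (SE 0.069, adjusted p = 1.24e-08), 0.29 at 2 h of KCl, -0.16 at 42 °C and -0.28 at 7 h of H2O2 (adjusted p = 0.00254). Map1lc3b overlaps Zcchc14 in the annotation.

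Footprints on Map1lc3b were above the control in every stressed library. They measured 82.4 and 70.6 CPM in the control, 123 and 114 after 2 h and 98.5 and 114 after 7 h of H2O2, and 121 and 112 after 2 h and 230 and 188 after 7 h of KCl. Only the rise at 7 h of KCl passed the footprint test (1.45, SE 0.19, adjusted p = 0.000319). Under H2O2 Map1lc3b RNA was called lower at 7 h but not at 2 h. Translational efficiency under H2O2 was called higher at 2 h (0.74, SE 0.18, adjusted p = 0.0163) and at 7 h (0.75, SE 0.18, adjusted p = 0.0159). Both calls were lost without RNA control replicate 1, without footprint control replicate 2 or without RNA replicate 2 of the H2O2 group, and the later one also without footprint replicate 2 of H2O2 (adjusted p up to 0.0694 at 2 h and 0.0627 at 7 h).

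Gabarapl1 rose under KCl at 2 h (0.58) and 7 h (0.69, SE 0.058, adjusted p = 1.25e-07), and Gabarapl2 by 0.42 and 0.39. Gabarap rose at 44 °C (0.31) and at 7 h of KCl (0.30) and fell at 42 °C (-0.19) and 2 h of H2O2 (-0.27). Map1lc3a was called higher in 1 RNA comparison, at 7 h of H2O2 (0.50, SE 0.084, adjusted p = 0.000101), with footprints at 39.9 and 26.7 CPM in the control and 77.2 and 78.3 at that time (1.22, adjusted p = 0.00417; 0.0517 without control replicate 2). Of the 5 family members 4 were called higher and none lower in RNA at 7 h of KCl, against 37.2% and 31.6% of all genes, Map1lc3a being the one not called (-0.03, adjusted p = 0.804). The opposite split, 1 higher and 4 lower, was found at 42 °C, against 31.7% and 31.9%.

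Summed over the family, RNA came to 1111 TPM in the heat control (SD 48.3, n = 2), 1493 at 44 °C (SD 6.76) and 880 at 42 °C (SD 31.4). In the other experiment it was 1014 in the control (SD 52.6), 925 (SD 49.8) and 903 (SD 38.6) after 2 h and 7 h of H2O2, and 1089 (SD 5.15) and 1344 (SD 111) after 2 h and 7 h of KCl. The sum was thus highest at 44 °C and at 7 h of KCl. The share of Map1lc3b in it was 19.3% (SD 0.549) in the control and 28% (SD 0.854) at 7 h of KCl, and in footprints 21.9% (SD 2.51) and 34.4% (SD 3.01). Gabarap remained the largest part in RNA in every group, at 39.5% to 52.1%. Summed footprint TPM was 1130 in the control (SD 31.1) and lay between 1525 and 1903 in the stressed groups. These sums are descriptions and carry no test.

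**Figure D3:**
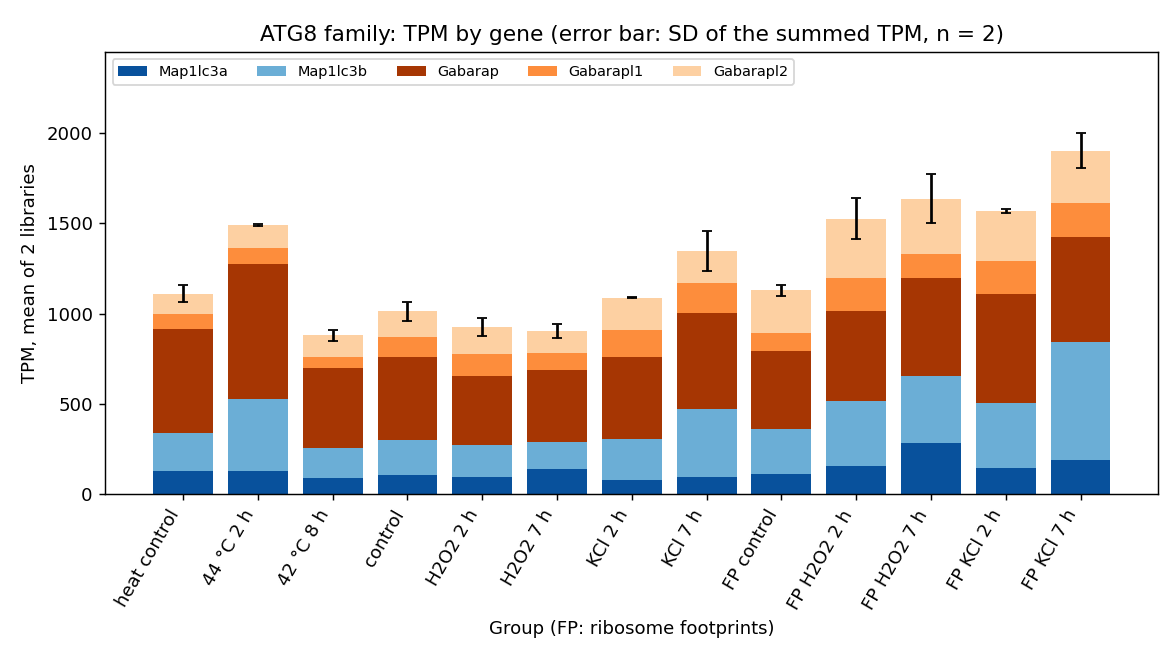
TPM of the 5 ATG8 family genes stacked by group (horizontal axis: 8 RNA groups, then 5 footprint groups; vertical axis from 0), means of 2 libraries with the SD of the sum. The RNA sum is highest at 44 °C (1493 TPM) and 7 h of KCl (1344 TPM), and the part of Map1lc3b is widest in the 7 h KCl footprints.

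The 4 cargo receptors bind ubiquitin or other cargo and dock it to ATG8. All 4 rose at 7 h of KCl, where 37.2% of all genes did: Optn by 0.85 (SE 0.086, adjusted p = 7.72e-07), Tax1bp1 by 0.63, Nbr1 by 0.50 and Calcoco1 by 0.26. Optn RNA was 20.4 and 20.3 CPM in the control and 33.9 and 39.7 at that time, without overlap. At 42 °C Calcoco1 fell by 0.70 on the log2 scale (58.9 and 62.7 CPM in the control, 36.4 and 38.3 at 42 °C; SE 0.056, adjusted p = 1.05e-07), Nbr1 by 0.42 and Optn by 0.29. Tax1bp1 rose at 7 h of H2O2 in RNA (0.75, SE 0.062, adjusted p = 7.26e-08) and in footprints (203 and 154 CPM in the control, 347 and 370 at 7 h; 1.01, adjusted p = 0.004; 0.0538 without control replicate 2). Its small rise at 42 °C (0.12, adjusted p = 0.0204) turned to -0.07 on the TPM scale, as did that of Becn1 (0.16 to -0.04).

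Ribosome footprints could be tested for 34 members, all but Atg10. After 2 h of H2O2 edgeR called none, where it called 1.91% of all 10545 genes. Some members had an unadjusted p under 0.05, a threshold for which the share of all genes is not given here. DESeq2 and limma on log2(TPM + 1) also called none, where they called 2.72% and 0.417% of all genes. The shallowest footprint library, with 1460751 counts, belongs to this group. After 7 h of H2O2 12 members (35.3%) were called, against 27.7% of all genes. Of these 11 were higher and Atg9a lower, against 17.2% and 10.6% of all genes. KCl gave 1 call at 2 h, Gabarapl1 (0.88, SE 0.24, adjusted p = 0.0435), against 6.86% of all genes, and 10 at 7 h (29.4%, against 20.4%), 8 higher and 2 lower, against 10.5% and 9.83%. Besides the genes described by role above, footprints at 7 h of H2O2 rose on Atg101 (0.82), Atg2b (0.75), Atg5 (0.63) and Atg4c (1.51). These calls did not hold throughout: Atg5 lost its call in 8 of 10 alternatives, DESeq2 and log2(TPM + 1) among them (adjusted p up to 0.32). Atg4c lost it under DESeq2 and without any 1 of its 4 libraries, Atg2b on log2(TPM + 1) and without H2O2 replicate 2 or control replicate 1, and Atg101 without H2O2 or control replicate 2. The members' median footprint change was 0.35 after 7 h of H2O2 and 0.34 after 7 h of KCl, against 0.01 and -0.02 over all genes.

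The footprint counts as a whole also moved when single libraries were left out. After 7 h of H2O2 each such fit called fewer members, and Ulk1, Atg14 and Pik3r4 kept their calls in every alternative. After 7 h of KCl each fit also called fewer, and Uvrag, Atg14, Atg101, Map1lc3b and Atg4b kept their calls in every alternative. A library left out leaves 1 in its group, and the share of all genes called in these fits is not given here. Whether the drop is particular to the members was therefore not tested. The call of Gabarapl1 at 2 h of KCl was lost when any 1 of its 4 libraries was left out.

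Translational efficiency was called for 3 of 34 members at 2 h of H2O2 (8.82%, against 11.4% of 10480 genes), 4 at 7 h of H2O2 (11.8%, against 9.27%), 3 at 2 h of KCl (8.82%, against 12.8%) and none at 7 h of KCl (against 5.57%). In that last comparison some members had an unadjusted p under 0.05 in edgeR's test, for which the share of all genes is not given here. Limma with voom weights called none, where it called 2.11% of all genes. The shares called by edgeR are close to those of all genes. Over the 9 genes concerned, the calls were higher for Map1lc3b at both times of H2O2, for Ulk1, Atg14 and Pik3r4 at 7 h of H2O2, and for Ambra1 and Atg7 at 2 h of KCl. They were lower for Rb1cc1 and Wipi2 at 2 h of H2O2 and Atg2b at 2 h of KCl. In 9 of the 10 cases the call was lost in at least 1 alternative, the exception being Ulk1.

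These counts too moved when single libraries were left out. At 2 h of H2O2 they moved both up and down, at 7 h of H2O2 and 2 h of KCl only down, and at 7 h of KCl only up. Each such fit leaves 1 library in a group, and its share over all genes is not given here.

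**Figure D4:**
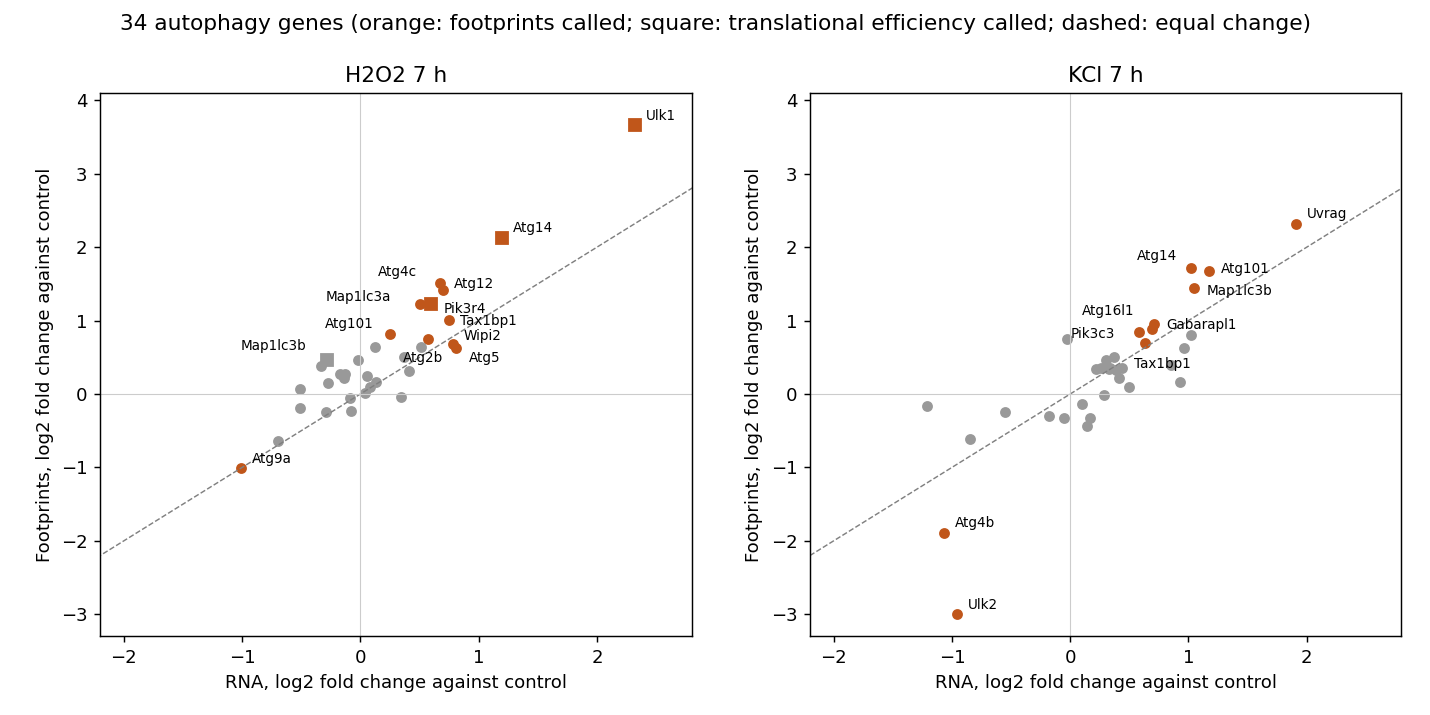
Log2 fold change of footprints (vertical axis) against that of RNA (horizontal axis) for 34 autophagy genes at 7 h of H2O2 (left) and 7 h of KCl (right); on the dashed line both change equally. Ulk1 (2.32 in RNA, 3.66 in footprints) and Atg14 lie above the line at 7 h of H2O2, and Uvrag and Atg4b are at the ends of the KCl plot with Ulk2.

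The members were also compared between stresses and times. Between the heat treatments 30 members (85.7%) differed, 8 higher and 22 lower at 42 °C for 8 h than at 44 °C for 2 h, where 75.1% of all genes were called, 37.9% higher and 37.2% lower. On the TPM scale the split was 4 and 26, against 2675 and 6250 of 11456 genes, with the median of all genes at -0.21. Atg14 (-1.08, SE 0.068, adjusted p = 3.57e-09) and Map1lc3b (-1.03, SE 0.044, adjusted p = 7.96e-11) differed most. In this comparison temperature and time cannot be told apart.

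From 2 h to 7 h of H2O2 26 members changed, 19 higher and 7 lower, against 73.4% of all genes (37.3% and 36.1%). On the TPM scale the split was 18 and 11, against 3905 and 4554 of 11409 genes. Ulk1 (2.48, SE 0.069, adjusted p = 1.02e-12) and Atg14 (1.18) rose most and Atg9a fell most (-0.94). From 2 h to 7 h of KCl 31 changed, 25 higher and 6 lower, against 68.8% of all genes (35.1% and 33.7%). Atg16l1 (1.35), Uvrag (1.21), Atg13 (1.13) and Atg14 (1.10) rose most, and Atg10 (-1.97) and Atg4c (-1.37) fell most. Atg13 and Atg16l1 had been below the control at 2 h and were above it at 7 h.

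H2O2 and KCl were set against each other directly, without the control. At 2 h 21 members differed, 10 higher and 11 lower under H2O2, against 51.3% of all genes (27% and 24.2%). The TPM scale gave 11 higher and 8 lower, against 3649 and 1922 of 11409 genes. At 7 h 32 of 35 differed (91.4%), 13 higher and 19 lower under H2O2, against 78.4% of all genes (41% and 37.4%). The largest differences at 7 h were those of Uvrag (-2.18, SE 0.069, adjusted p = 1.74e-12) and Ulk1 (2.02, SE 0.068, adjusted p = 3.43e-12). Rb1cc1 (-1.44), Map1lc3b (-1.32), Atg9a (-1.24) and Atg101 (-0.93) were lower under H2O2, and Atg4c (1.88), Atg10 (1.64), Atg4b (0.99), Atg3 (0.96), Wipi2 (0.96) and Atg7 (0.89) were higher. Of the 5 ATG8 genes 4 were lower under H2O2 than under KCl, and Map1lc3a was higher (0.52).

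Other genes of the pathway were followed as 5 lists, and those named are given at their largest RNA change against a control. Their median log2 fold change at 7 h of KCl was 0.30 for upstream regulators, 0.16 for transcription regulators, 0.55 for further receptors, 0.47 for other genes of autophagosome formation and 0.30 for fusion genes, against 0.04 over all genes. Of 17 upstream regulators (mTORC1, AMPK and their modulators) 8 rose and 5 fell at 7 h of H2O2 (39.4% and 31.1% of all genes), and 9 rose and 2 fell at 7 h of KCl (37.2% and 31.6%). Sesn2, a stress-induced inhibitor of mTORC1 signalling, rose at 2 h of H2O2 from 12.2 and 14.5 CPM to 188 and 173 (3.76, SE 0.087, adjusted p = 1.23e-12). It measured 54.8 and 51.8 CPM in the control of the heat experiment, which was normalized separately. Prkaa2, a catalytic AMPK subunit, rose at 7 h of H2O2 (3.67, SE 0.11; 2.5 on the log2(TPM + 1) scale), as did Ddit4, another mTORC1 inhibitor (2.07). Of 6 transcription regulators 3 rose and 1 fell at 7 h of H2O2 (39.4% and 31.1% of all genes), Foxo3 by 1.91 and Tfeb, a master regulator of lysosome genes, by -1.18. Neither change was particular to H2O2. After 7 h of KCl Foxo3 stood at 107 and 114 CPM (control 43.8 and 44.9) and Tfeb at 10.5 and 10.4 (control 21 and 22.9). Tfeb was called lower in all 6 RNA comparisons with a control. Foxo3 was called higher in all but that at 42 °C, where it was lower. Mitf, a relative of Tfeb, rose at 2 h of KCl by 0.94. It was also called higher at both times of H2O2, and lower at 7 h of KCl and in both heat groups.

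Of 12 further receptors 11 were tested. After 7 h of H2O2 2 of them rose and 7 fell (39.4% and 31.1% of all genes), and after 7 h of KCl 7 rose and 2 fell (37.2% and 31.6%). Sqstm1, which encodes the receptor p62, went from 442 and 420 CPM in the control to 1274 and 1353 after 7 h of H2O2 (1.61, SE 0.083, adjusted p = 4e-10). It was also called higher at 44 °C, at 2 h of H2O2 and at both times of KCl, and lower at 42 °C. Bnip3, a mitophagy receptor, fell from 33.4 and 30.7 to 9.55 and 9.69 CPM (-1.74, SE 0.083, adjusted p = 1.87e-10), and stood at 81.4 and 83.1 after 7 h of KCl. Wdfy3, the scaffold ALFY, rose at 2 h of KCl by 0.85 in RNA, with replicates at 99.8 and 144 CPM. Its footprints were called lower in that comparison (61.1 and 59.4 CPM in the control, 36.9 and 31.6 after 2 h of KCl), as was its translational efficiency.

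Of 10 other genes of autophagosome formation 8 rose and 1 fell at 44 °C, against 35.4% and 35.7% of all genes. After 7 h of H2O2 5 rose and 3 fell (39.4% and 31.1%), and after 2 h of KCl 1 rose and 6 fell (27.2% and 27%). Atg9b, the paralog of Atg9a, measured 7.76 and 7.13 CPM in the control and 375 and 380 after 7 h of H2O2 (5.66, SE 0.097, adjusted p = 1.06e-14). In TPM its share of the summed Atg9a and Atg9b RNA went from 7.76% (SD 0.0683, n = 2) to 89.6% (SD 0.259, n = 2), in the group in which Atg9a fell. Atg9b overlaps Nos3, and reads of overlapping genes cannot be assigned with certainty. Footprints on Atg9b went from 1.47 and 0.55 to 85.1 and 71.7 CPM in the same comparison. Trp53inp1, a p53 target that binds ATG8, rose at 7 h of H2O2 by 4.57, and Nrbf2, a subunit that joins the VPS34 complex, fell at 2 h of KCl (-1.26). Trp53inp1 was also called higher at 44 °C, 2 h of H2O2 and 7 h of KCl, and lower at 42 °C and 2 h of KCl. Nrbf2 was also called lower at 2 h of H2O2, and higher at 7 h of H2O2 and in both heat groups. Of 15 genes of autophagosome fusion 9 rose and 4 fell at 7 h of KCl (37.2% and 31.6% of all genes), among them Vps11, a shared subunit of the HOPS and CORVET tethers, which rose by 1.14. Plekhm1 fell at 42 °C (-1.56) and Vps18, another tether subunit, at 2 h of KCl (-1.48). Plekhm1 was also called lower at 2 h of either agent. It was called higher at 44 °C and at 7 h of KCl (81.1 and 80.8 CPM, control 38.7 and 39). Vps18 fell at 42 °C as well (26.1 and 27.8 CPM, control 66.9 and 67.8) and was called higher at 44 °C and 2 h of H2O2.

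The study asked, by its title, how stress-induced transcription past a gene's end runs into its neighbour. The authors deposited, for 6399 pairs of neighbouring genes and each RNA library, a call of a DoG (downstream-of-gene) transcript from the upstream gene, a call of read-in into the downstream gene, and a read-in estimate. Of these pairs 29 hold an autophagy gene, 16 as the upstream and 13 as the downstream partner, with 23 members among them. A DoG was called in both replicates of at least 1 group for 18 of the 29, where 42.4% of all pairs were. In all, 5 pairs had it in all 16 libraries (Ctdnep1 to Gabarap, Wipi1 to Slc16a6, Optn to Mcm10, Gabarapl2 to Terf2ip, and Foxl1 to Map1lc3b), against 4.33% of all pairs. A DoG belongs to the upstream gene, so in 13 of the 29 pairs the call is that of a member's neighbour. All these counts pool both kinds of pair, and the pairs were not matched to all pairs for expression. The group with the most was 44 °C, with 14 member pairs (48.3%, against 19.5% of all pairs). Among them were the DoGs of the non-members Rtn4ip1, Ctdnep1, Rnd2, Ccdc80, Foxl1 and Aste1. There were 9 in the heat control (31%, against 15.7%), 11 at 42 °C (37.9%, against 17.6%), 10 at 2 h of H2O2 (34.5%, against 20.7%) and 6 at 7 h of H2O2 (20.7%, against 11.1%). The shared control had 7 (24.1%, against 14.3%), and KCl had 9 at either time (31%, against 19% and 13.1%).

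Read-in calls touched 2 member pairs, both at Gabarap. Read-in from Ctdnep1 into Gabarap was called in all 16 libraries, as for 0.156% of all pairs. The authors' estimate for it was 0.02 and 0.0324 in the control, 0.0802 and 0.0818 after 2 h and 0.0244 and 0.0329 after 7 h of H2O2, and 0.156 and 0.149 after 2 h and 0.0947 and 0.115 after 7 h of KCl. Under heat it was 0.0208 and 0.0217 in the control, then 0.0545 and 0.0605 after 2 h at 44 °C and 0.0422 and 0.0574 after 8 h at 42 °C. Every stressed group but 7 h of H2O2 lay above its control without overlap, and the highest values were those at 2 h of KCl. The Gabarap RNA level itself was 232 and 232 CPM at 2 h of KCl against 235 and 204 in the control.

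Read-in from Gabarap into its downstream neighbour Phf23 was called in 7 libraries, in both replicates at 44 °C (1.22% of all pairs), at 42 °C (0.938%) and at 2 h of KCl (2.17%), where 3.53% of all pairs had it in both replicates of at least 1 group. Its estimate was 0.046 and 0.0196 in the control and 0.146 and 0.134 after 2 h of KCl. The heat groups gave 0.0415 and 0.0446 in the control, then 0.0718 and 0.0921 after 2 h at 44 °C and 0.0786 and 0.0961 after 8 h at 42 °C. The pair Glb1l to Atg9a had estimates from 0.106 to 0.344 and no read-in call in any library. The sources used here do not give the formula of the estimate or the criteria of the calls, so the values are compared only within a pair.

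**Figure D5:**
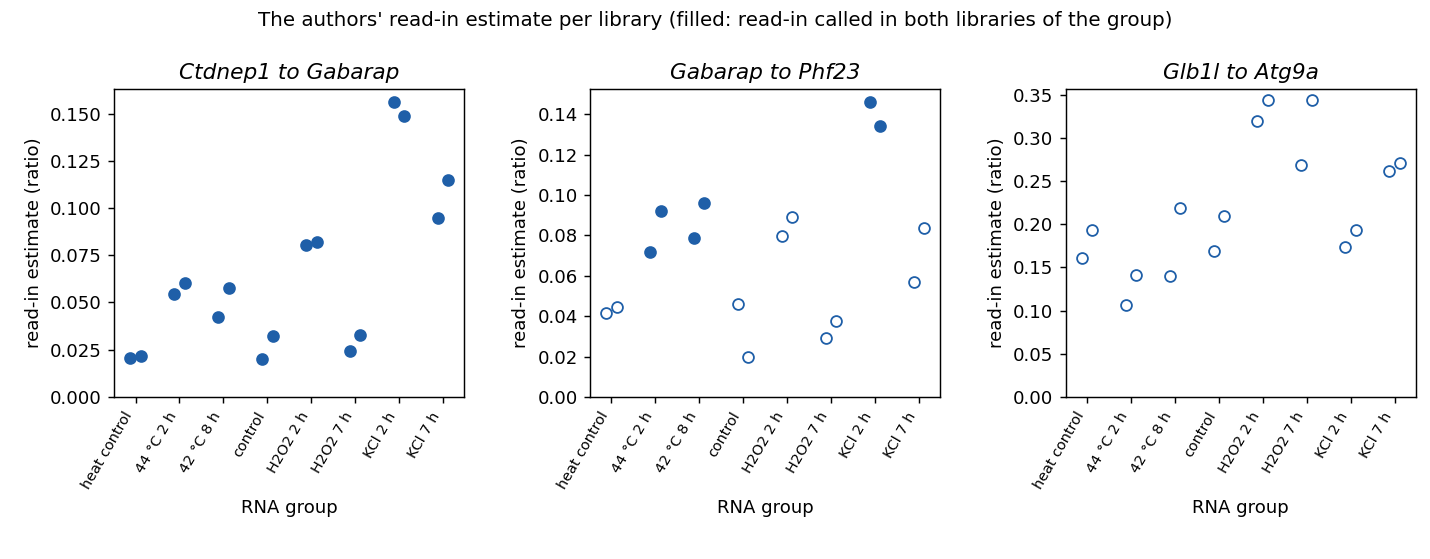
The authors' read-in estimate (vertical axes, a ratio from 0) in each RNA library by group for the pairs Ctdnep1 to Gabarap, Gabarap to Phf23 and Glb1l to Atg9a; filled points are groups with read-in called in both libraries. The first 2 pairs are highest at 2 h of KCl (0.156 and 0.149 for Ctdnep1 to Gabarap), and Glb1l to Atg9a has open points only.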

How the data were processed

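The authors deposited RSEM gene tables, per the file names and the submitters' processing notes, with expected counts and TPM for RNA and footprint libraries. All expected counts were whole numbers. They also deposited true or false DoG and read-in calls and a read-in ratio for pairs of neighbouring genes. STAR, RSEM, Bowtie and mm10 are listed in the submitters' processing notes. The sources used here do not give their roles and versions, the strand setting, the read-in formula or the criteria of the calls. Of the footprint tables, 12 columns belonging to no sample here were not used.

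Expected counts of each experiment and kind of library were filtered (filterByExpr, minimum count 10), normalized by TMM and tested with edgeR 4.0.16 (quasi-likelihood test, R 4.3.3) over all genes. P-values were adjusted by Benjamini-Hochberg over all genes tested, with calls at 0.05. Translational efficiency was the interaction of kind of library and treatment over 20 footprint and RNA libraries. DESeq2 1.42.0, limma 3.58.1 on log2(TPM + 1), no filter, other sample sets and leaving out each library were alternatives. The procedure was tested on simulated data, where the share of false calls exceeded the threshold in some simulations.

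Levels per library are given for members with a called change of at least 1 on the log2 scale or a call in translational efficiency, and of each other list for at most 3 genes. The members and lists were chosen with earlier results of these data known. Total expected counts set the counting precision, and p-values and SDs rest on 2 libraries per group.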

Additional observations from a re-analysis of the deposited data

Results flagged for a closer look

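In 22 cases a gene was called higher under 1 treatment and lower under another of the same experiment, with the difference between them called as well. This was 12.6% of 175 cases, against 13.8% of the cases over all genes. In 8 of these cases (4.57%, against 7.09% over all genes) the difference was at least 1 on the log2 scale (edgeR's quasi-likelihood test, adjusted p under 0.05, 2 libraries a group).

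Map1lc3b was lower at 42 °C for 8 h than at 44 °C for 2 h by -1.03 (SE 0.044, adjusted p = 7.96e-11), being -0.16 and 0.86 against the control. Between 7 h and 2 h of KCl Atg13 differed by 1.13 (0.44 and -0.69 against the control) and Atg16l1 by 1.35 (0.71 and -0.63). Both went from below the control to above it.

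Between H2O2 and KCl at 7 h, Uvrag differed by -2.18 (-0.27 under H2O2, 1.91 under KCl), Rb1cc1 by -1.44 (-0.51 and 0.93), Map1lc3b by -1.32 (-0.28 and 1.05) and Atg9a by -1.24 (-1.01 and 0.22). Atg4c differed in the other direction, by 1.88 (0.67 under H2O2 and -1.21 under KCl). The values against the control share their control libraries, while the differences do not use them.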

How the results depend on the processing

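Of 200 alternatives to the 20 counts of members, 170 stayed within 1.5 times the value reported. Of the 135 called RNA values of members, 25 lost their call under at least 1 alternative and 3 turned direction, all 3 at 42 °C on log2(TPM + 1) (Tax1bp1 0.122 to -0.0663, Atg12 0.13 to -0.0525 and Becn1 0.159 to -0.044). Of the 23 called footprint values 15 lost their call and of the 10 called efficiency values 9, with 0 turned. Leaving out 1 library gave 5 to 8 footprint calls at 7 h of H2O2, 6 to 9 at 7 h of KCl and 0 at 2 h of KCl. It gave 0 to 6 efficiency calls at 2 h of H2O2, 1 to 4 at 7 h of H2O2, 0 to 3 at 2 h of KCl and 0 to 1 at 7 h of KCl. With voom weights efficiency calls were 2 after 7 h of H2O2 and 1 after 2 h of KCl. The footprint call at 2 h of KCl went to 0 on log2(TPM + 1). Leaving out a library leaves fewer samples by construction; for the other alternatives the cause was not tested. Member pairs with a DoG call in both replicates of at least 1 group were 18 of 29, where 42.4% of all pairs had one. A DoG call in at least 1 library was found for all 29, and the share over all pairs is not given here. No label says what the replicate numbers share, and they were not taken to pair the samples: deviations of same-numbered libraries correlated by -0.126 to 0.17 in RNA and -0.405 to 0.435 in footprints. The 6 footprint correlations among the control, H2O2 at 7 h and both KCl groups were 0.202 to 0.435, and the 4 with H2O2 at 2 h were -0.405 to -0.0398. With the replicate block the footprint count at 2 h of KCl was 0 (6.71% of all genes were called), and no other count moved by over 1.5 times. A crossed pairing gave 3 footprint calls at 2 h of H2O2, and the share over all genes is not given here. It was chosen after these correlations were seen, so its calls are no support for a change of members. Footprint depth limits the low-count genes Atg10, Ulk2, Atg12 and Atg4c.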
